A study of Mus musculus with 4 samples.

Results

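Semaphorins, their plexin receptors and the neuropilin co-receptors were followed in macrophages cocultured with colon cancer cells. The set holds 10 genes of the 21878 listed, namely the ligands Sema3c, Sema4a, Sema4b and Sema4d, the plexins Plxna1, Plxnb2, Plxnc1 and Plxnd1, and the neuropilins Nrp1 and Nrp2. Sema3c was picked because it was among the largest rises in the libraries labelled anti-Act1, and the other 9 were added as its family and receptors, with results of these data known. The difference in Sema3c is therefore given as a description with no test, and the calls of the other 9 are read only against the share of all genes called.

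The RNA came from bone-marrow-derived macrophages (BMDMs), cells grown from mouse marrow with the growth factor M-CSF, of C57BL/6 mice aged 8 weeks. All macrophages, controls included, shared the medium for 48 h by the labels with MC38, a mouse colon cancer cell line that the study's methods place in an insert with a porous floor; a figure legend of the study gives a shorter coculture. The labels put 2 libraries in the group WT and 2 in the group anti-Act1, the latter from mice in which Act1, an adaptor of IL-17 receptor and NF-κB signalling, is knocked down in macrophages, and the study asked what this does to macrophages that share medium with tumour cells. The promoter that drives the knockdown is not given in the sources used here. The methods name 2 biological replicates per condition without saying whether each was 1 mouse, so the p-values measure the spread between these libraries only.

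Semaphorins are ligands, some secreted (class 3) and some anchored in the membrane (classes 4 to 7), that steer migrating cells and growing axons. Plexins are their signalling receptors, with a cytoplasmic domain that inactivates small GTPases of the Ras family, and neuropilins bind class 3 semaphorins and VEGF outside the cell while leaving the signal to a plexin or a VEGF receptor. In macrophages the family is known for guiding cells within tumours, for contacts with T cells and for release of the shed form of Sema4d, which acts on endothelial and epithelial cells.

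The start regions of Sema3c, Plxnd1 and Nrp1 are shown because these members had the largest differences among the ligands, plexins and neuropilins of the set. Each is the RefSeq window (GRCm38.p6) of 250 bases before to 50 bases after the annotated start, 5′ to 3′ on the strand of the gene. Capitals mark every GC box, the letters GGGCGG on either strand. The window of Sema3c is chr5:17574566-17574865 (plus strand), that of Plxnd1 is chr6:115994956-115995255 (minus strand) and that of Nrp1 is chr8:128358823-128359122 (plus strand).
Sema3c: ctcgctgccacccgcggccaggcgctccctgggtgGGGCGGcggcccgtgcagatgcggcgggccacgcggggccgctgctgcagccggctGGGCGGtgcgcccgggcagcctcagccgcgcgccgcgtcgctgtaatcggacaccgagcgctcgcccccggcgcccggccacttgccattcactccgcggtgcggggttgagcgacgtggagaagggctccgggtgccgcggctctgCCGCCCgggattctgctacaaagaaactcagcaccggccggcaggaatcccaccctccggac
Plxnd1: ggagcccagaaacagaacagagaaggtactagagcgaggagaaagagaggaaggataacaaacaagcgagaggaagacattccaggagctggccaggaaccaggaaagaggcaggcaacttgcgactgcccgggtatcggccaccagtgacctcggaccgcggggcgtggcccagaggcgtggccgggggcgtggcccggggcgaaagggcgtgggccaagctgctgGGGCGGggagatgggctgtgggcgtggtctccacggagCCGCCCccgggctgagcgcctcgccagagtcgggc
Nrp1: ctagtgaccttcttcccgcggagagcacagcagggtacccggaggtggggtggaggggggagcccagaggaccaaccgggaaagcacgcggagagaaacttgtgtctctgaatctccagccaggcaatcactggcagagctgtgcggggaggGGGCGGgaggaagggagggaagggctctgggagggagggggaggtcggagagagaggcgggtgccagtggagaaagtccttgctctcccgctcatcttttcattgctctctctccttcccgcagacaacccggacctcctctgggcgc

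Windows were matched for 9 members, 16 windows in all, and none was given for Plxna1. A GC box stood in 13 of the 16 windows, against 35.7% of all 32851 windows. Each of the 9 members had it in at least 1 window, but some had several windows, so that share does not apply per gene. The Sema3c window held 42 CpG dinucleotides (percentile 97.0 of all windows, median 7), the Plxnd1 window 23 and the Nrp1 window 14. Searched on both strands, a full NF-κB motif (in 1.63% of all windows), the STAT letters TTCNNNGAA (8.30%), the PU.1 letters GAGGAAGT (3.20%) and the TATA letters TATAAA (13.6%) were in 0 of the 16 windows. The AP-1 letters TGANTCA (7.81% of all windows) were in 1 window, of Sema4d, and the HIF letters ACGTG (19.6%) were in 4 windows of 3 members, Sema3c among them. These are letter matches only and say nothing of binding.

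As a check of the labels, Traf3ip2, the gene of Act1, did not fall under the knockdown label. WT libraries 1 and 2 had 6.98 and 7.54 CPM of it (counts scaled for depth with TMM normalization) and anti-Act1 libraries 1 and 2 had 9.63 and 7.84 CPM. The log2 fold change was 0.27 ± 0.12 (SE), with an adjusted p of 0.117 by edgeR's quasi-likelihood test with Benjamini-Hochberg adjustment. In its own check, apart from these libraries, the study reports Act1 strongly reduced in BMDMs of anti-Act1 mice. Its text does not say whether RNA or protein was measured there, so the 2 checks may not be alike. The RNA counts of Traf3ip2 in these 4 libraries do not show a drop, so WT and anti-Act1 stand below for libraries labelled so. Total counts were 55435063 to 75062945 per library, both libraries labelled WT were the deeper ones, and 3 counts, the limit set by a count of 0, came to 0.0395 to 0.0549 CPM per library (counting error only). The summed CPM of 4 Y-linked genes reached 227.6 and 246.1 in WT against 0.0162 and 0 in anti-Act1, so a difference in the sex of the mice and the label cannot be told apart. All 8 macrophage markers were detected, with sums of 24573 to 25554 CPM (WT) and 25418 to 26257 CPM (anti-Act1). Lyz2 made up most of each sum (16811 and 15811 CPM in WT, 17135 and 17736 CPM in anti-Act1). Cd14 was called higher (log2 fold change 0.16, edgeR adjusted p = 0.0113). Itgam (−0.31, 3.96e-06) and Mertk (−0.40, 4.09e-08) were called lower, and the other 5 were not called. The share called was 37.5%, against 20.7% of all genes tested. These markers were named after their values were seen. Of 8 epithelial markers Krt8, Krt18 and Krt20 were at 0 in every library and the whole list summed to 0.330 to 0.898 CPM. Endothelial markers (6 genes, Emcn at 0) summed to 54.9 to 62.7 CPM, nearly all of it Vwf, and dendritic cell markers (6 genes) to 4.26 to 5.31 CPM, with overlapping groups. In bulk RNA, more expressing cells and more RNA per cell cannot be told apart.

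Sema3c, a secreted ligand that binds both neuropilins and signals with plexins such as Plxnd1, was scarce in WT and several times higher in anti-Act1. Its counts were 22 and 28 in WT libraries 1 and 2 and 157 and 106 in anti-Act1 libraries 1 and 2. Scaled for depth these were 0.341 and 0.369 CPM against 2.54 and 1.94 CPM. The groups did not overlap, and the anti-Act1 mean of 2.24 ± 0.425 CPM (SD, n = 2) was 6.32 times the WT mean of 0.355 ± 0.0201 CPM. The fitted log2 fold change was 2.65, which placed Sema3c at rank 17 among the rises of the 12494 genes tested. It was at rank 3 among the 10892 of them with a mean of at least 1 CPM over the 4 libraries. With a WT mean of 0.355 CPM, it met that minimum only through the anti-Act1 libraries. Both ranks use the values by which Sema3c was picked, so they only describe it. Without anti-Act1 library 1, the higher of its group, the log2 fold change was 2.45.

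At low levels, the summed markers of some other cell types were higher in anti-Act1, as Sema3c was, but most of each sum was 1 gene and the members of a list did not all go one way. The summed CPM of 9 fibroblast and marrow stroma genes (Lum at 0) ran from 1.54 to 1.98 in WT and from 2.09 to 2.64 in anti-Act1. Neutrophil genes (6) summed to 5.92 to 6.10 and 6.15 to 6.96 CPM, T cell genes (5) to 0.681 to 0.751 and 0.806 to 1.08 CPM, and B cell genes (5) to 2.91 to 3.18 and 3.69 to 4.03 CPM. These sums did not overlap between groups. Most of the CPM came from Pdgfrb among the stroma genes, Lck among the T cell genes, Cd79b among the B cell genes and S100a8 among the neutrophil genes. Of the 4 neutrophil genes tested, S100a8 was called higher (3.61 and 3.74 CPM in WT, 6.09 and 5.55 CPM in anti-Act1), while S100a9 (1.83 and 1.55 CPM against 0.810 and 0.440) and Retnlg (0.341 and 0.250 CPM against 0.0324 and 0) were called lower, Retnlg not without anti-Act1 library 2 (edgeR adjusted p = 0.0806). The 5 stroma, T cell and B cell genes tested did not pass (edgeR adjusted p 0.156 to 0.744). Among the endothelial genes Egfl7 was called higher (0.774 and 0.422 CPM in WT, 1.18 and 1.34 CPM in anti-Act1, edgeR adjusted p = 0.0207). Its call was lost in 5 of 12 alternatives, among them DESeq2 (adjusted p = 0.0955) and the fits without WT library 2, anti-Act1 library 1 or anti-Act1 library 2. Esam lay higher in both anti-Act1 libraries and was not called (edgeR adjusted p = 0.203). Tek did too, with at most 4 counts in any library, and was not tested. Cdh5 (0.944 and 0.514 CPM in WT, 0.437 and 0.787 CPM in anti-Act1) and Vwf overlapped between groups and were not called. These single markers were named after their values were seen. Their part in the Sema3c difference was not tested.

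Per length, Sema3c remained a minor ligand in all 4 libraries. Its deposited level was 0.0691 and 0.0753 FPKM (counts scaled by gene length and by library total) in WT and 0.512 and 0.386 FPKM in anti-Act1. Sema4d, the most abundant semaphorin here, stood at 118 and 124 FPKM in WT and 120 and 125 FPKM in anti-Act1. Sema3c thus made up 0.0429% and 0.0452% of the summed FPKM of all 20 semaphorins in WT and 0.316% and 0.230% in anti-Act1, whereas Sema4d held 73.4% to 74.6% of that sum in every library.

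**Figure D1:**
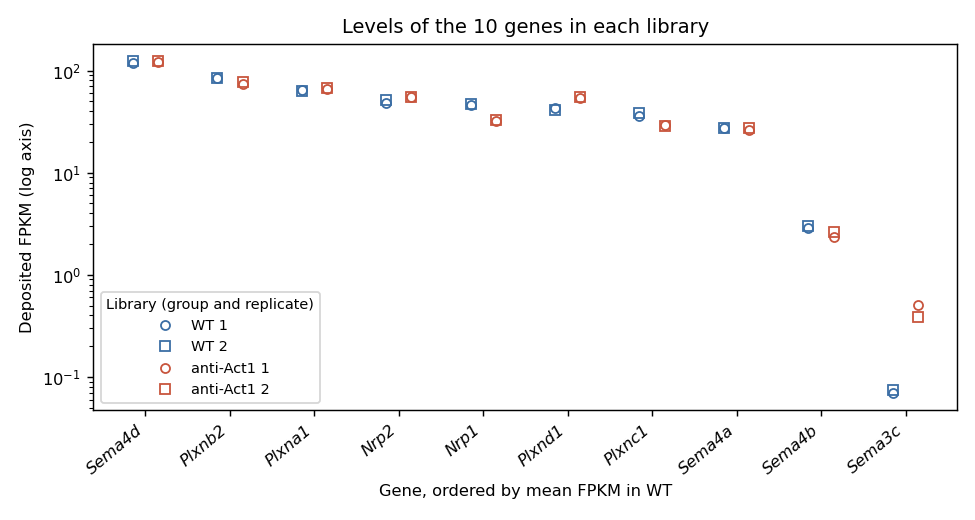
Deposited FPKM (log axis) of the 10 genes in each library, ordered by their WT mean, with circles for replicate 1, squares for replicate 2, blue for WT and red for anti-Act1. Sema4d lies near 121 FPKM in WT and Sema3c near 0.0722, and Sema3c has the widest gap between the groups.

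By mean FPKM the order in WT was Sema4d (121), Plxnb2 (84.3), Plxna1 (63.9), Nrp2 (49.99), Nrp1 (46.3), Plxnd1 (42.1), Plxnc1 (36.8), Sema4a (27.5), Sema4b (2.95) and Sema3c (0.0722), and no neighbours in it overlapped. In anti-Act1, Plxnd1 (54.6) stood beside Nrp2 (54.7) with overlapping values, and Nrp1 (32.4) came after both. The other neighbours there did not overlap, with Plxnc1 at 29.0, Sema4a at 26.8, Sema4b at 2.48 and Sema3c at 0.449 FPKM. Sema3c was the last of the 10 in both groups.

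Among the other 9 members, Plxnd1 and Nrp2 rose and Plxnc1 and Nrp1 fell, while the 3 class 4 ligands, Plxna1 and Plxnb2 did not pass the test. Thus 4 of 9 were called, 2 in each direction (44.4%), against 20.7% of all 12494 genes tested (10.9% higher and 9.76% lower). The median log2 fold change of the 9 was −0.01 and that of all genes tested was −0.0046. The members were listed with earlier results of these data in view, so this count is a description. The CPM of the groups did not overlap for 7 of the 9, against 57.1% of all genes tested.

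The membrane-bound class 4 ligands differed little between groups. Sema4d, known as CD100, which binds plexins of the B class and CD72 on immune cells, was at 487 and 509 CPM in WT and 501 and 527 CPM in anti-Act1. Its values overlapped, and the 95% interval of the log2 fold change ran from −0.06 to 0.15 (estimate 0.04, edgeR adjusted p = 0.613). Sema4a, which acts on T cells and endothelium, was at 92.9 and 93.2 CPM in WT and 90.1 and 94.6 CPM in anti-Act1. The WT values lay between the anti-Act1 values, with an interval of −0.12 to 0.10 (estimate −0.01, edgeR adjusted p = 0.928). Sema4b was at 11.4 and 12.1 CPM in WT and 9.47 and 10.6 CPM in anti-Act1. Both anti-Act1 values were below both WT values, and the log2 fold change of −0.23 (interval −0.44 to −0.02) did not pass the adjusted threshold of 0.05 (edgeR adjusted p = 0.118).

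Outside the set, 16 semaphorins were listed, 7 of which had enough counts to be tested. Sema4c, a ligand of Plxnb2, was at 14.3 and 13.9 CPM in WT and 11.6 and 11.9 CPM in anti-Act1 and fell by 0.27 on the log2 scale (edgeR adjusted p = 0.0345). Sema6b, a ligand of A-class plexins, was at 31.7 and 28.6 CPM in WT and 34.6 and 36.6 CPM in anti-Act1 and rose by 0.24 (edgeR adjusted p = 0.00888). Both pairs of groups were apart, but Sema4c lost its call without any 1 of the 4 libraries (adjusted p 0.0805 to 0.181) with DESeq2 (0.121) and with limma on unfiltered FPKM (0.117). Sema6b lost it without WT library 2 (0.161) or anti-Act1 library 2 (0.143) and in the 3 limma settings (0.0700 to 0.173). Sema3b had 14 and 13 counts in WT and 4 and 2 in anti-Act1 and was not called (a log2 fold change of −1.87 and an edgeR adjusted p of 0.125). Sema4g, Sema6c, Sema6d and Sema7a, at 0.0310 to 1.44 CPM, were not called either. Of the other 9, Sema4f and Sema5b were at 0 in every library and Sema3a, Sema3d, Sema3e, Sema3f, Sema3g, Sema5a and Sema6a had at most 11 counts in any library.

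**Figure D2:**
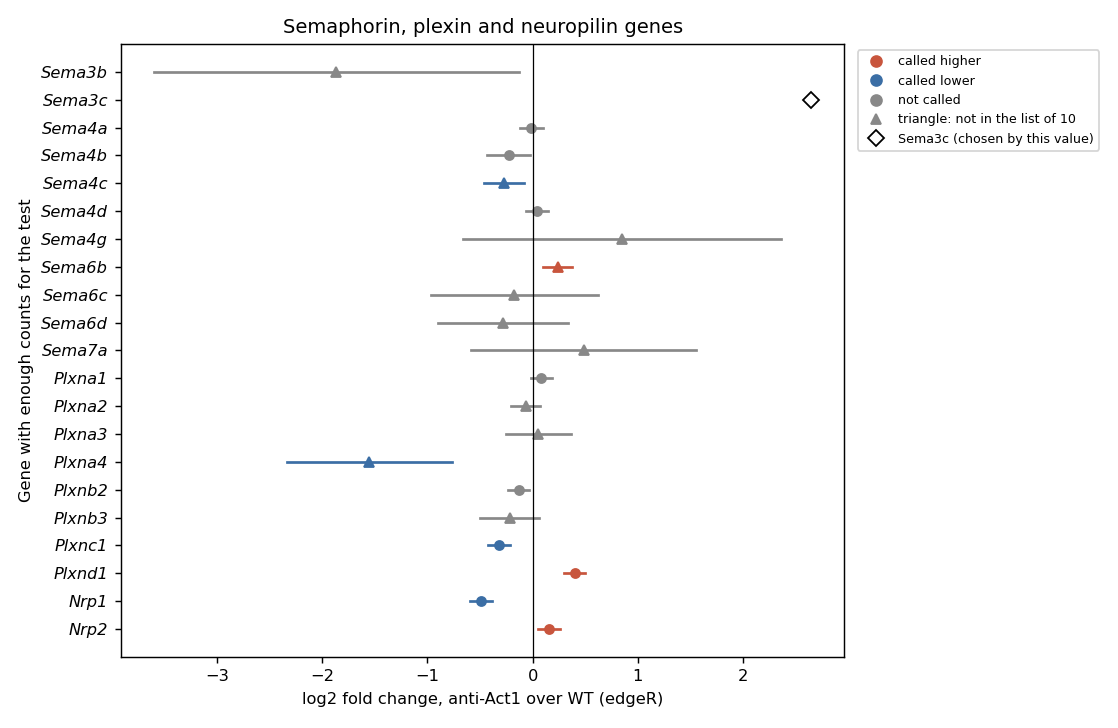
The log2 fold change (anti-Act1 over WT, edgeR) of the 21 semaphorin, plexin and neuropilin genes tested, with 95% intervals, circles for members and triangles for the rest of the family, red for called higher, blue for called lower and grey for not called. The diamond is Sema3c at 2.65, drawn without an interval because the gene was chosen by this value; Plxna4 at −1.55 is the lowest called gene.

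Plexins moved in both directions. Plxnd1, a receptor of Sema3e and, together with neuropilins, of Sema3c, was at 295 and 282 CPM in WT and 374 and 386 CPM in anti-Act1. Its groups were well apart, and it rose 1.32-fold (log2 fold change 0.40 ± 0.051 (SE), edgeR adjusted p = 2.24e-08). Plxnc1, the receptor of Sema7a, was at 227 and 243 CPM in WT and 191 and 186 CPM in anti-Act1. It was 1.25 times higher in WT, with no overlap, and fell by 0.32 ± 0.052 (SE) on the log2 scale (edgeR adjusted p = 4.54e-06). Both calls held under all 14 alternatives.

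Plxna1, which pairs with neuropilins for class 3 semaphorins and with Trem2 and Tyrobp for Sema6d, was at 576 and 568 CPM in WT and 593 and 618 CPM in anti-Act1. Its groups did not overlap, but the log2 fold change of 0.08 (interval −0.02 to 0.18) did not pass (edgeR adjusted p = 0.268). Its exons overlap those of the antisense gene Gm26811, and whether the counting used strand is not given in the sources used here. On their own strand, exons of Plxnc1 overlap the gene model Gm48718, those of Nrp1 overlap Mir1903 and those of Sema4a overlap Mir7011, so reads there could be shared. Plxnb2, a receptor of class 4 semaphorins, was at 539 and 546 CPM in WT and 475 and 515 CPM in anti-Act1. The anti-Act1 values were the lower ones, and the log2 fold change of −0.13 (interval −0.24 to −0.03) lay just outside the threshold (edgeR adjusted p = 0.0590). It passed with DESeq2 (adjusted p = 0.0398), without composition normalization (0.0251) and without the filter on low counts (0.0479).

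The other 5 plexins added little to the family's level: the 4 member plexins held 97.9% to 98.1% of the summed plexin FPKM in every library. Plxna4, a partner of Nrp1 in Sema3a signalling, was at 1.04 and 1.09 CPM in WT and 0.308 and 0.421 CPM in anti-Act1 (67, 83, 19 and 23 counts). It fell by 1.55 ± 0.39 (SE) on the log2 scale (edgeR adjusted p = 0.00239) with no overlap, though the call was lost without anti-Act1 library 1 (edgeR adjusted p = 0.0513) and with limma on unfiltered FPKM (0.0732). Plxna2, Plxna3 and Plxnb3 were tested and not called (log2 fold changes −0.07, 0.06 and −0.22), and Plxnb1 had at most 6 counts in any library. Over the whole family without Sema3c, 7 of 20 genes tested were called (35.0%, against 20.7% of all genes), 3 higher and 4 lower, with a median of −0.10. Among the 11 tested genes outside the set the count was 3 (27.3%), near that background.

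Both neuropilins were called, in opposite directions. Nrp1, the co-receptor of Sema3a and VEGF, was at 185 and 190.2 CPM in WT and 133 and 135 CPM in anti-Act1. The groups were far apart relative to their spread, with WT 1.40 times anti-Act1, and Nrp1 fell by 0.49 ± 0.052 (SE) on the log2 scale (edgeR adjusted p = 2.49e-10), a call held under all 14 alternatives. Nrp2, the co-receptor of Sema3f, Sema3c and VEGF-C, was at 291 and 308 CPM in WT and 331 and 336 CPM in anti-Act1. It rose 1.11-fold with no overlap (log2 fold change 0.15 ± 0.051 (SE), edgeR adjusted p = 0.0234). The Nrp2 call was lost without WT library 1 (edgeR adjusted p = 0.167), anti-Act1 library 1 (0.102) or anti-Act1 library 2 (0.185), without composition normalization (0.0690) and in the 3 limma settings.

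**Figure D3:**
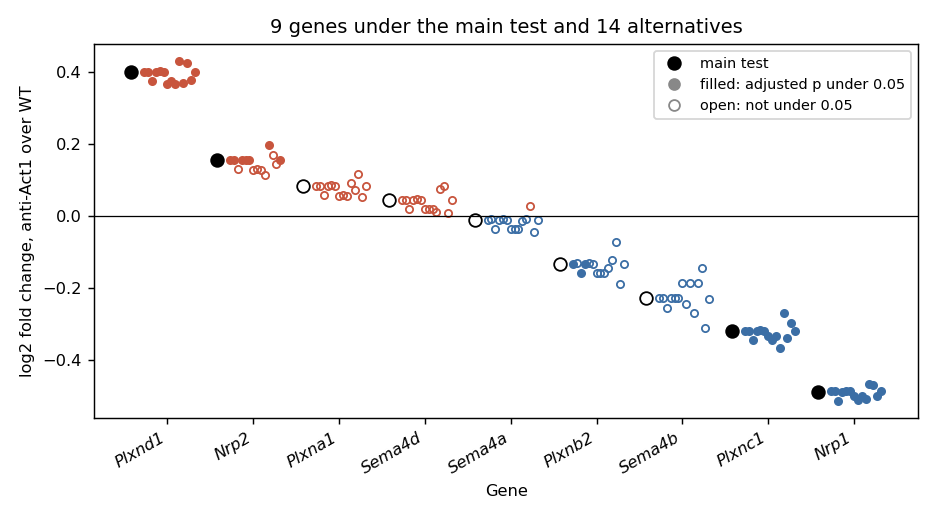
The log2 fold change (anti-Act1 over WT) of the 9 members other than Sema3c under the main test (large black symbols) and 14 alternatives (small symbols, red above 0 and blue below), filled where the adjusted p was under 0.05. Plxnd1, Plxnc1 and Nrp1 are filled throughout, Nrp2 is open in 7 alternatives, and Sema4a is the 1 gene with a point on the other side of 0, at 0.028.

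Summed over each family, the semaphorin and plexin levels overlapped between groups, while the makeup of the plexins and of the neuropilins differed. The Sema4d share of the semaphorins overlapped between groups. Summed FPKM was 161 and 166 for semaphorins in WT against 162 and 168 in anti-Act1, and 231 and 233 for plexins against 226 and 233, with overlapping groups in both cases. The neuropilin sum was 94.0 and 98.5 in WT and 86.9 and 87.3 in anti-Act1, with no overlap. Within the plexins, Plxnd1 held 18.6% and 17.7% of the sum in WT and 23.9% and 23.6% in anti-Act1. Plxnc1 held 15.4% and 16.4% in WT and 13.1% and 12.2% in anti-Act1. The ratio of Nrp2 to Nrp1 FPKM was 1.06 and 1.10 in WT and 1.69 and 1.68 in anti-Act1, so the excess of Nrp2 over Nrp1 was larger in anti-Act1. The ratio of Plxnd1 to Plxnc1 was 1.21 and 1.08 in WT and 1.83 and 1.94 in anti-Act1. These shares and ratios follow from the genes tested above and were not tested again, since an exact permutation test of 2 libraries against 2 cannot go below p = 0.333.

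**Figure D4:**
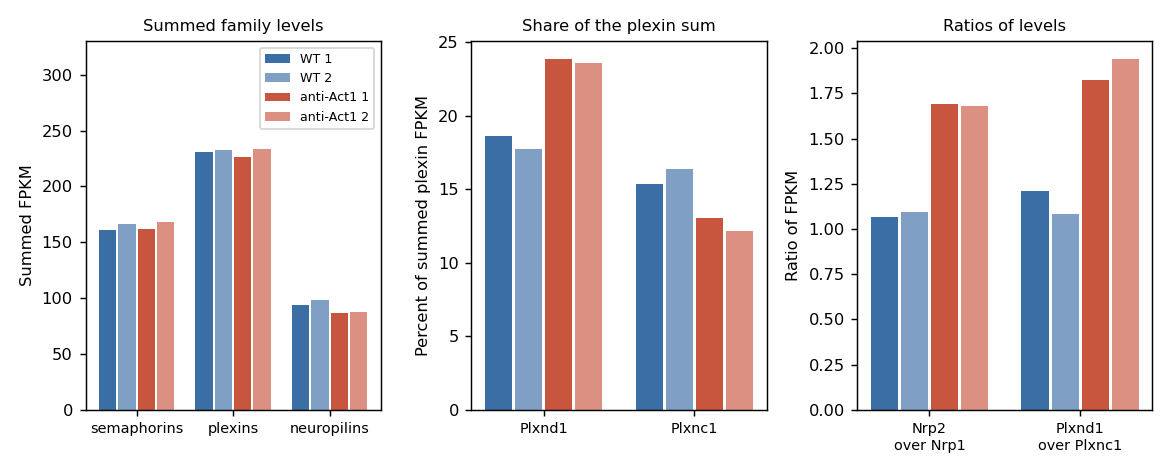
Bars show, per library, the summed FPKM of each family (left), the percent of summed plexin FPKM held by Plxnd1 and by Plxnc1 (middle) and ratios of FPKM (right). The sums of semaphorins and plexins are near level across the 4 libraries, while the Nrp2 to Nrp1 ratio is 1.06 and 1.10 in WT and 1.69 and 1.68 in anti-Act1.

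Of 57 other pathway genes tested (receptors and partners, VEGF ligands, proteases, cytoplasmic effectors), 13 rose and 4 fell in anti-Act1, 29.8% called against the 20.7% of all genes. The clearest was Met, the receptor of hepatocyte growth factor and a partner of B-class plexins, at 8.50 and 8.76 CPM in WT and 21.9 and 21.5 CPM in anti-Act1. It rose 2.51-fold (log2 fold change 1.33 ± 0.090 (SE), edgeR adjusted p = 1.59e-16). Among the 14 receptors and partners tested it was the 1 called higher, and Cd72, a receptor of Sema4d on immune cells, was the 1 called lower (219 and 205 CPM in WT, 159 and 161 CPM in anti-Act1, a log2 fold change of −0.40 and an edgeR adjusted p of 3.24e-08). The median log2 fold change of the 14 was 0.0027.

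Proteases that release or cut semaphorins were called in 3 of 6 tested, each of the 3 higher (median log2 fold change of the 6, 0.12), where 10.9% of all genes were called higher. Adamts1, a secreted metalloproteinase known to cleave SEMA3C, was at 0.898 and 0.856 CPM in WT and 2.95 and 3.19 CPM in anti-Act1. It rose 3.50-fold (log2 fold change 1.80 ± 0.24 (SE), edgeR adjusted p = 4.38e-08), with no overlap and a call in all 12 alternatives that gave a value. The others were Adam17 (log2 fold change 0.22) and Mmp14 (0.26), membrane proteases that can shed Sema4d. Of the 3 VEGF ligands tested, which share neuropilins with class 3 semaphorins, 2 were called, both higher (median log2 fold change of the 3, 0.21), against the same 10.9%; both lists are too short to read a share from. Placental growth factor, Pgf, was at 0.310 and 0.448 CPM in WT and 1.04 and 1.23 CPM in anti-Act1 (a log2 fold change of 1.56 ± 0.38 (SE) and an edgeR adjusted p of 0.00192), and the other was Vegfa (0.21).

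**Figure D5:**
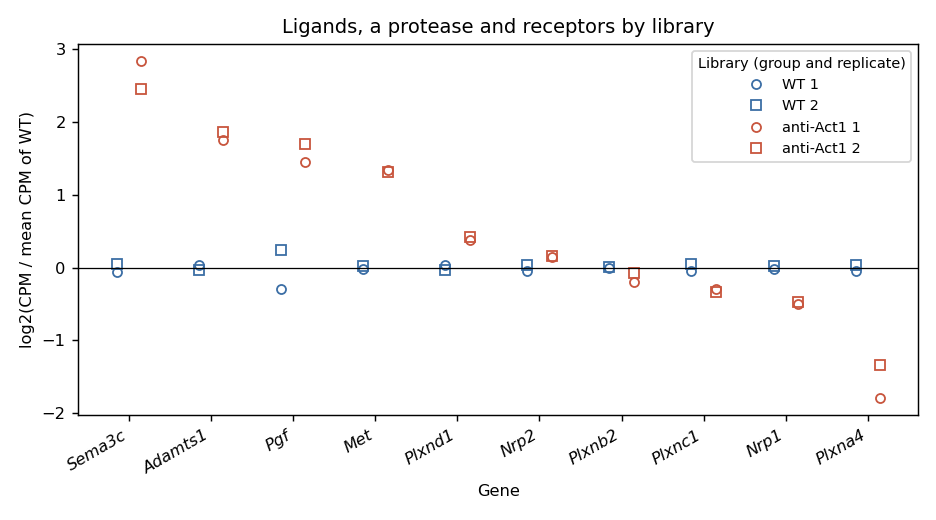
Each library's CPM relative to the WT mean of the gene (log2 axis) for ligands, a protease and receptors, with circles for replicate 1, squares for replicate 2, blue for WT and red for anti-Act1. Sema3c, Adamts1, Pgf and Met lie above 1 on this axis in both anti-Act1 libraries, and Nrp1 and Plxna4 lie below 0.

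Of 34 cytoplasmic effectors of plexins tested, 7 were called higher and 3 lower (29.4% called, median log2 fold change −0.0047). Of all genes tested 20.7% were called, 10.9% higher and 9.76% lower. Mical2, an actin-oxidising enzyme of the MICAL family that plexins engage, was at 25.7 and 27.3 CPM in WT and 38.9 and 40.8 CPM in anti-Act1. It rose with no overlap (log2 fold change 0.59 ± 0.068 (SE), edgeR adjusted p = 1.78e-09). Farp1, a FERM-domain exchange factor, had 12 and 15 counts in WT and 37 and 24 in anti-Act1 (a log2 fold change of 1.43 with an edgeR adjusted p of 0.0438), and its call was lost in 9 of 12 alternatives. Rras, Mical3 and Ptk2 were among the other higher calls and Rac1, Fyn and Rock1 were the lower ones. Their log2 fold changes lay between −0.35 and 0.41. Fyn, Mical3, Rock1 and Ptk2 lost their calls in 2, 6, 7 and 8 alternatives. Cd72, Adam17, Mmp14, Vegfa and these last 6 genes were named after their values were seen.

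Among genes with a mean of at least 1 CPM, those most like Sema3c were Lox (distance 0.191), Clec4e (0.229) and Ass1 (0.236). Sema3c itself met that minimum only through the anti-Act1 libraries. The measure was the Euclidean distance between centred log2(CPM + 0.5) over the 4 libraries. Lox, a secreted lysyl oxidase that cross-links collagen, was at 1.41 and 1.36 CPM in WT and 5.55 and 5.29 CPM in anti-Act1. Clec4e, the Mincle receptor of innate immune cells, was at 64.3 and 67.6 CPM in WT and 195 and 185 CPM in anti-Act1. Ass1, the argininosuccinate synthase of arginine metabolism, was at 4.23 and 3.49 CPM in WT and 14.8 and 13.1 CPM in anti-Act1. The added 0.5 CPM compresses the 6.32-fold rise of the scarce Sema3c. Genes that rose less thus come out close to it (Lox 3.92-fold, Clec4e 2.88-fold, Ass1 3.62-fold). With 4 libraries in 2 groups, any gene with a similar rise on this compressed scale does so.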

How the data were processed

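RNA of 4 macrophage libraries (2 per group) was sequenced as read pairs and aligned with TopHat by the authors; whether counting used strand is not given in the sources used here. The submitters' processing notes name Bowtie 0.12.2, HTSeq 0.6.1 and the builds mm8 and mm10, with no role for either build. The authors deposited whole counts per gene without normalization, and FPKM values made from them.

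The counts were tested with edgeR 4.0.16 (R 4.3.3): TMM normalization, filterByExpr, group as the only term, the two-sided quasi-likelihood F test and Benjamini-Hochberg adjustment over the 12494 genes that passed. CPM are the deposited counts scaled with TMM. Levels between genes were compared in the deposited FPKM. A gene was called at an adjusted p under 0.05. The study's methods use DESeq2, which served as an alternative (DESeq2 1.42.0); limma 3.58.1 on the deposited FPKM, with a pseudocount of 1 or 0.1 and a log2 scale (at least 1 FPKM in 2 libraries, or no filter), other normalizations and filters, the replicate number as a block and each library left out were the others. The tests were tested on simulated data.

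Named were the 10 members, Traf3ip2, the tested semaphorins and plexins, pathway genes called with an absolute log2 fold change of at least 0.5 (at most 3 per direction and list), and the 3 genes nearest to Sema3c. Some genes that meet the rule are not reported here. Members and lists were chosen with earlier results of these data known. Promoter windows came from RefSeq (GRCm38.p6) and exon overlaps from GENCODE M21. No protein sequence was used here. Replicates differed by more than sampling noise (chi-square per degree of freedom 10.8 for WT and 7.45 for anti-Act1).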

Additional observations from a re-analysis of the deposited data

How the results depend on the processing

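The calls of Plxnd1, Plxnc1 and Nrp1 held in all 14 alternatives, and 3 to 5 of the 9 members other than Sema3c were called in each. Over all genes, 2586 were called, 1091 with limma on unfiltered log2(FPKM + 1), and 1671 to 2543 with 1 library left out. Over the family without Sema3c, 7 were called, 4 with limma on log2(FPKM + 1), 4 on log2(FPKM + 0.1), 3 on unfiltered log2(FPKM + 1), and 4 to 5 with 1 library left out. The Sema3c log2 difference was 2.45 to 2.83 with 1 library left out and 0.43 with limma on unfiltered log2(FPKM + 1), a scale that compresses low values; the FPKM filter drops Sema3c from the other 2 limma settings. Traf3ip2 gave 0.11 to 0.41 with 1 library left out, and the highest value, without anti-Act1 library 2, passed (edgeR adjusted p = 0.0343). With 1 library left out, 4 genes that were called in no setting changed sign: Sema4a ran from −0.044 to 0.028 and Sema4g from −0.020 to 2.64 (the sign changed without anti-Act1 library 1), Sema6c from −0.39 to 0.058 (without WT library 1) and Plxna3 from −0.059 to 0.18 (without WT library 1, and at −0.035 without anti-Act1 library 2). The cause was not tested.

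DESeq2 called 1986 genes and gave no adjusted p for Sema3b and Sema4g. Without composition normalization 1105 genes were higher and 1411 lower, against 1366 and 1220. Same-numbered libraries did not deviate together (r = −0.0297 over 12494 genes). With 2 libraries per group this compares 1 contrast per group, so it cannot decide whether the numbers mark pairs. With the replicate number as a block, 2406 genes, 4 members and 7 family genes were called. In that fit the Nrp2 adjusted p (edgeR) lay at the threshold, just under 0.05, and Sema3c was at 2.64. Farp1 lost its call there (edgeR adjusted p = 0.0678). Of the counts between 1 and 20, 67.2% were even; with counts halved, an alternative added after seeing the data, 2674 genes and the same number of members (4) were called. With 1 library left out of a group, the lone library is assumed to vary like the other group. Low semaphorins (at most 11 counts) cannot be compared at this depth.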
